A study of Caenorhabditis elegans with 4 samples.

Results

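The broad domains described here are the LIN-13 peaks of 1500 bp or more in C. elegans larvae of the second stage (L2). They were chosen by their width in the peak list of the combined ChIP data, and 278 of the 3503 combined peaks on the 6 nuclear chromosomes met the rule. Width was the only value used, so the widths and everything measured in the same combined list are given as descriptions. The lists of the single ChIP replicates rest on the same ChIP samples and are no independent test either.

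Chromatin was immunoprecipitated with an antibody against GFP from hermaphrodites of strain OP49, grown at 20 degrees on E. coli HB101 and crosslinked at L2. The strain carries the unc119(ed3) mutation and the bombarded transgene wgIs49, in which lin-13 is joined to TY1, EGFP and FLAG tags and which also holds unc119 as its marker. All samples share this genotype, so the sites are those of a tagged transgene product in whole animals, and the cells that contribute to a peak are not resolved. The submitters describe the fusion as expressed where and when lin-13 normally is. The series has 2 ChIP and 2 input samples, numbered as replicates 1 and 2. Groups were taken from the titles, because the free-text descriptions seem swapped between ChIP and input. Peak lists of both ChIP replicates and of the combined data were analysed, with positions in WormBase WS180. The lists hold no read counts, so depth is unknown, and nothing in the labels tells whether the replicates came from separate cultures.

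LIN-13 has zinc fingers and belongs to the synMuv B proteins, which repress vulval and germline programmes in somatic cells of C. elegans. It acts in repression together with the heterochromatin protein HPL-2 and with LIN-61, a protein that binds methylated histone H3. Proteins that spread along chromatin tend to give broad ChIP signals, whereas factors bound at single DNA elements tend to give narrow ones. The arms of worm autosomes are richer in heterochromatin marks and repeats than the centres, and X is regulated apart from the autosomes by dosage compensation.

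The broad domains were 7.94% of the combined peaks and held 742562 of the 2542748 bp under all combined peaks, or 29.2%. The 2174 combined peaks of 300 to 800 bp, used for comparison, held 42.2% of those bases. Broad domains ranged from 1506 to 15670 bp, and the median was 2135 bp (quartiles 1731 and 2793 bp). In 115 domains the width was below 2000 bp, in 99 it lay from 2000 to under 3000 bp, in 44 from 3000 to under 5000 bp, and in 20 it was 5000 bp or more. The threshold cut a continuous range of widths. The narrowest domains inside it were X 14169381 to 14170886 (1506 bp), III 1926081 to 1927589 (1509 bp) and V 11615843 to 11617352 (1510 bp). The widest peaks left outside were III 343626 to 345122 and V 7855 to 9351, each of 1497 bp, and X 17630481 to 17631973 of 1493 bp.

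The strength of a peak is given as −log10 of the authors' q-value, which ranks peaks within 1 list. Broad domains had a median −log10 q of 22.1 (quartiles 12.7 and 39.95), against 6.67 (4.78 and 10.7) for peaks of 300 to 800 bp. They made up 12 of the 20 strongest combined peaks, 52 of the strongest 100 and 160 of the strongest 500. A q-value gains from the number of reads in a peak, and width and strength moved together, with Spearman's rho of 0.51 across the 278 domains and 0.51 across all 3503 combined peaks. These are correlations across peaks of 1 list, which share its reads. Width still left a wide range of strength. In 12 domains −log10 q was under 5, and in 70 it was 40 or more. The weakest were X 4137571 to 4140041 (2471 bp, −log10 q 3.80), X 12876690 to 12878761 (2072 bp, 3.82) and III 9702598 to 9704700 (2103 bp, 3.82).

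**Figure D1:**
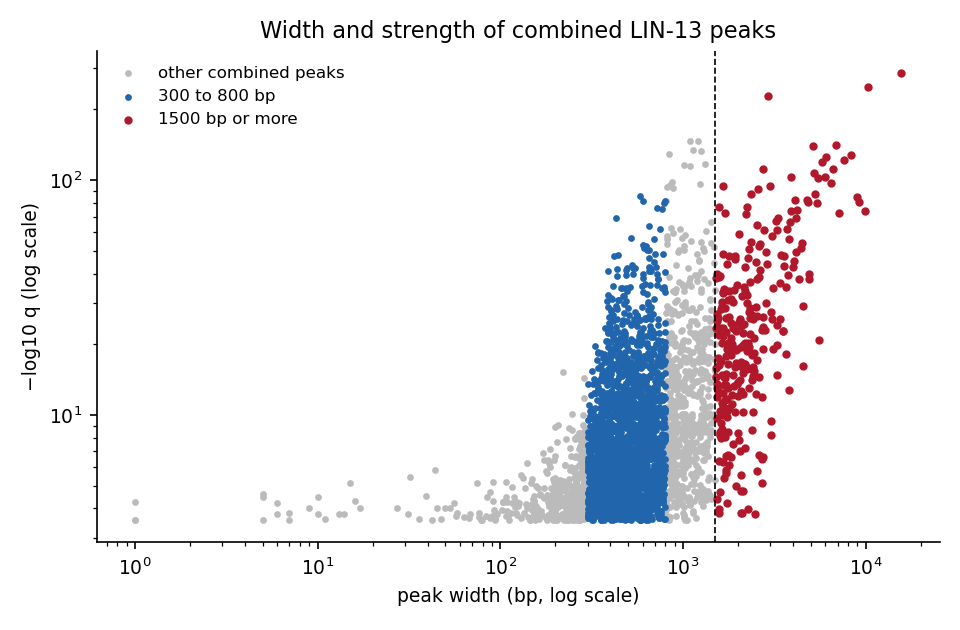
Width of each combined LIN-13 peak in bp against its −log10 q, both on log scales, with the 278 broad domains in red, the 2174 peaks of 300 to 800 bp in blue and all other combined peaks in grey. The dashed line marks 1500 bp; the domains right of it reach from −log10 q of 3.80 to 285.7.

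The widest domain, II 10541880 to 10557549, spanned 15670 bp and was also the strongest of the combined list. Replicate 1 held it as a peak of 11797 bp (−log10 q 102) followed by a weaker peak of 2407 bp (10.3). Replicate 2 also held it in 2 pieces, of 12884 bp (139.3) and 2405 bp (11.6). The pieces lay over 90.6% of the domain in replicate 1 and 97.3% in replicate 2. The second widest, V 6220778 to 6231002 (10225 bp), was 1 peak of 9549 bp in replicate 2. In replicate 1 it was a main peak of 6542 bp (−log10 q 93.0) and a weak outlying piece of 1170 bp (5.62), and the bases under peaks were 75.4% in replicate 1 and 92.7% in replicate 2.

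A domain of like width held many pieces, each weaker than the main pieces of the widest domains above. V 13082156 to 13091360 (9205 bp, combined −log10 q 80.7) held the most replicate peaks of any domain, 5 of replicate 1 and 4 of replicate 2. Those of replicate 1 were 510 to 1009 bp wide with −log10 q from 4.48 to 6.87, and those of replicate 2 were 742 to 2036 bp wide with −log10 q from 6.75 to 13.7. By q-value the strongest of them ranked 672 of 1494 peaks in replicate 1 and 320 of 1997 in replicate 2. The pieces covered 38.2% and 61.1% of the domain. X 6736255 to 6746167 (9913 bp, −log10 q 74.1) held 3 and 2 pieces over 55.8% and 66.1% of its bases. Its main piece was 2802 bp wide in replicate 1 (−log10 q 28.7) and 5345 bp wide in replicate 2 (26.9), and the other pieces had −log10 q from 5.25 to 5.97. In contrast to both, II 14598221 to 14607158 (8938 bp, −log10 q 84.8) was 1 peak in each replicate, of 7699 and 7965 bp.

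The widest domain of chromosome I was I 7079062 to 7086628 (7567 bp), that of III was III 62179 to 67602 (5424 bp) and that of IV was IV 4469592 to 4474467 (4876 bp). A replicate 2 peak of 6401 bp ran over the last of these and beyond its left edge, so that 99.3% of the domain lay under replicate 2 peaks against 69.1% under replicate 1. The other domains among the 20 widest were X 4140729 to 4149004 (8276 bp), V 13652507 to 13659621 (7115 bp), V 723774 to 730607 (6834 bp), I 5372156 to 5378803 (6648 bp) and I 12039405 to 12045827 (6423 bp). They were followed by I 9378285 to 9384306 (6022 bp), II 8741950 to 8747940 (5991 bp), I 5311319 to 5317053 (5735 bp), X 11470483 to 11475991 (5509 bp) and X 11602679 to 11608166 (5488 bp). The last of the 20 were I 7472101 to 7477356 (5256 bp), III 13066745 to 13071937 (5193 bp) and I 7656420 to 7661535 (5116 bp). Chromosome I held 7 of these 20 domains, V and X held 4 each, II held 3, III held 2 and IV held 0. The weakest of the 20 was X 11470483 to 11475991, with −log10 q of 20.9 and rank 410. It had 1 weak piece in each replicate, of 1673 bp in replicate 1 and 1154 bp in replicate 2, over 30.4% and 20.9% of its bases.

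Most broad domains held a peak in both replicates, with an overlap of at least 1 bp. A replicate 1 peak lay in 215 of the 278 domains (77.3%, 95% Wilson interval 72.1 to 81.9%), against 40.9% of all combined peaks. A replicate 2 peak lay in 233 (83.8%, 79.0 to 87.7%), against 53.9% of all combined peaks. Peaks of both replicates were found in 201 domains (72.3%, 66.8 to 77.2%), against 35.7% of all combined peaks and 32.8% (30.9 to 34.9%) of peaks of 300 to 800 bp. A wide interval meets a replicate peak more easily and the lists share their ChIP samples, so these differences are given as description alone. Of the remaining domains, 32 held replicate 2 peaks alone, 14 replicate 1 peaks alone and 31 (11.2%, 7.97 to 15.4%) neither. Intervals here cover counting only.

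The wider the domain, the more often both replicates had a peak in it. Both were present in 71 of 115 domains under 2000 bp (61.7%), in 69 of 99 from 2000 to under 3000 bp (69.7%), in 41 of 44 from 3000 to under 5000 bp (93.2%) and in all 20 of 5000 bp or more. The wider classes were also stronger, with median −log10 q of 14.9, 19.95, 41.3 and 105.2 in the same order. Width and strength were not separated in these counts. Peaks of both replicates in a domain need not cover the same bases. The 31 domains with no replicate peak were all under 3000 bp. The strongest of them were III 8866358 to 8868502 (2145 bp, −log10 q 16.5), II 6838206 to 6839930 (1725 bp, 13.5) and X 3787318 to 3789082 (1765 bp, 13.02). Next came IV 3350266 to 3351954 (1689 bp, 11.6) and I 13368983 to 13370773 (1791 bp, 10.7). These 5 were thus intervals over 1500 bp long that had −log10 q above 10 in the combined list and no peak in either replicate list.

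Set beside narrower peaks of like strength, the shares found in both replicates were as follows. With combined −log10 q from 10 to under 20, 53 of 84 broad domains (63.1%, Wilson interval 52.4 to 72.6%) had peaks of both replicates, against 377 of 449 peaks of 300 to 800 bp (84.0%, 80.3 to 87.1%). The medians of −log10 q within this range were 14.7 and 13.2. From 5 to under 10 the counts were 2 of 34 (5.88%, 1.63 to 19.1%) and 166 of 942 (17.6%, 15.3 to 20.2%), with overlapping intervals. Under 5 they were 0 of 12 and 2 of 614. From 20 to under 40 they were 76 of 78 and 134 of 134, and at 40 or more all 70 broad domains and all 35 narrower peaks were found in both. These ranges were set after seeing the data and no test was made.

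**Figure D2:**
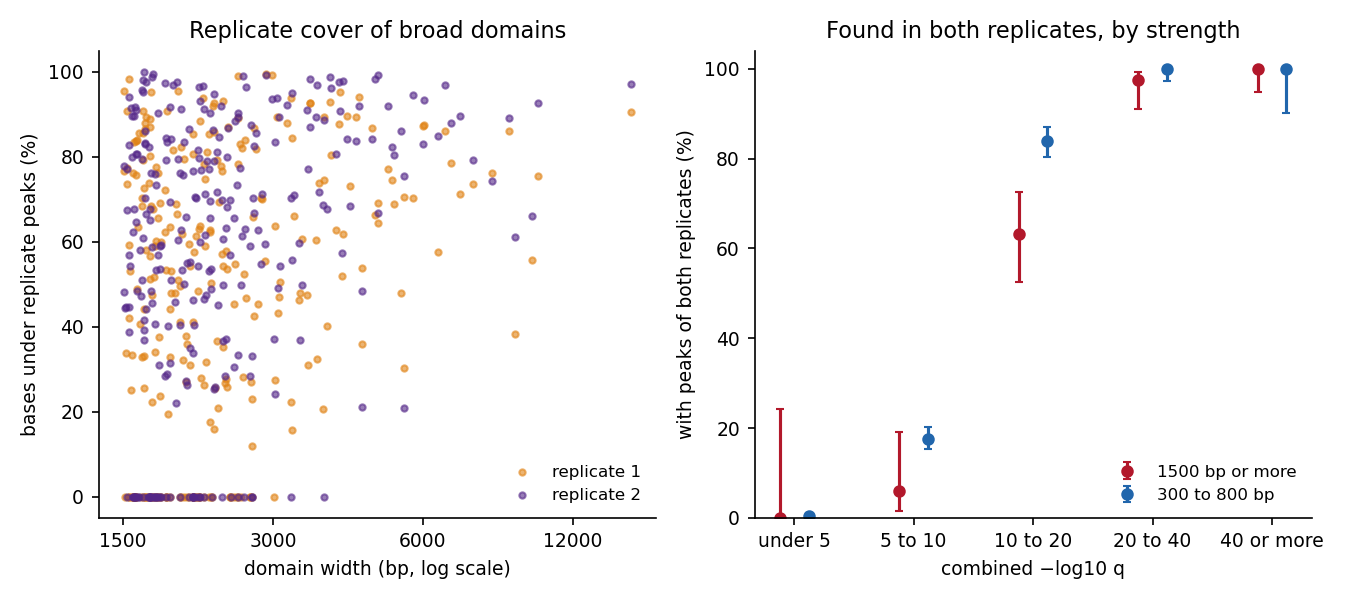
Left, share of each broad domain's bases under peaks of replicate 1 (orange) or replicate 2 (purple) in percent, against domain width in bp on a log scale. Right, percent of broad domains (red) and of 300 to 800 bp peaks (blue) with peaks of both replicates, by combined −log10 q, with 95% Wilson intervals; the gap is widest from 10 to 20, at 63.1% against 84.0%.

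Where a replicate did have a peak, it filled less of a broad domain than of a narrower one. In the 215 domains with a replicate 1 peak, a median of 63.8% of the bases lay under it (quartiles 46.6 and 82.02%), against 84.4% (74.1 and 92.5%) in the 834 narrower peaks with one. For replicate 2 the medians were 71.3% (53.5 and 88%) in 233 domains and 86.2% (75.5 and 93.8%) in 1152 narrower peaks. Over all 278 domains, those without a replicate peak included, the median cover was 53.8% by replicate 1 and 66% by replicate 2. At least 1 replicate covered a median of 76.8% of a domain, and both at once covered 41.7%. In 117 domains (42.1%) both covered the same bases over 50% or more of the width. Across the 278 domains, Spearman's rho of replicate 1 cover was 0.66 with −log10 q and 0.23 with width. For replicate 2 cover these were 0.62 and 0.27. By width class, cover was highest in the widest domains, which were also the strongest, and width was not separated from strength here. In the 20 domains of 5000 bp or more the medians were 74.0% by replicate 1 and 85.5% by replicate 2, against 48.9% and 57.0% in the 115 below 2000 bp and 45.5% and 61.7% in the 99 from 2000 to under 3000 bp.

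In domains that held a piece of a replicate, the bases without a peak of that replicate lay mostly at the ends. In domains with a piece of replicate 1, 29.1% of all bases lay outside the outermost replicate edges and 6.47% between pieces. For replicate 2 these were 23.1% and 4.53%. This split is largely fixed in advance, because a domain with exactly 1 piece can have uncovered bases only at its ends. Such domains were 170 of the 215 with a replicate 1 piece and 179 of the 233 with a replicate 2 piece. The ends of each domain were then sorted into the nearer and the farther from the replicate edge, which makes them unequal by construction. In the 170 domains with exactly 1 replicate 1 peak, the nearer edges of peak and domain were a median of 77.5 bp apart and the farther edges 722.5 bp. In the 179 domains with exactly 1 replicate 2 peak they were 43 and 566 bp apart. In peaks of 300 to 800 bp the medians were 8 and 59 bp for replicate 1 and 4 and 53 bp for replicate 2. A nearer edge within 100 bp together with a farther edge over 500 bp away was seen in 53 of these 170 (31.2%) and 59 of these 179 domains (33.0%). The farther edge took a median of 29.6% and 25.9% of the domain's width, against 12.1% and 11.05% in peaks of 300 to 800 bp.

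Peak widths in the combined and replicate lists were set side by side where each list had 1 peak. In the 134 domains with exactly 1 peak of each replicate, the median width was 2023 bp in the combined list, 1250 bp in replicate 1 and 1426 bp in replicate 2. The combined peak was wider than both replicate peaks in 126 of the 134 (94.0%), and both replicate peaks reached 1500 bp in 37. The domains were chosen for their combined width, which favours this order. In the 714 peaks of 300 to 800 bp with 1 peak of each replicate, the combined peak was wider than both in 514 (72.0%), and the median widths were 509.5, 403.5 and 418 bp. The widths of the replicates had Spearman's rho of 0.69 across these 134 domains, with replicate 2 the wider in 80. Over all domains, 77 (27.7%) held a replicate 1 peak of 1500 bp or more, 106 (38.1%) a replicate 2 peak of that width, and 64 (23.02%) both. Among the 20 domains of 5000 bp or more, 17 held such a peak in both replicates, and among the 115 under 2000 bp 4 did.

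Seen from the replicates, wide peaks nearly always fell in a broad domain. Replicate 1 had 87 peaks of 1500 bp or more, 84 of them on a broad domain, and replicate 2 had 120, of which 109 were. None of them overlapped 2 broad domains. A further 2 in replicate 1 and 10 in replicate 2 overlapped only narrower combined peaks, and these were 1506 to 1819 bp wide. Each replicate had 1 wide peak that met no combined peak, an interval of 3645 bp at I 15063999 to 15067643 in replicate 1 (−log10 q 88.95) and I 15063998 to 15067642 in replicate 2 (63.7). It is no member, since the combined list has no peak there. In all, the broad domains took 270 replicate 1 peaks (18.1% of that list) and 293 replicate 2 peaks (14.7%), with 37.98% and 34.1% of the bases of those lists.

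Some domains, 70 of 278 (25.2%, Wilson interval 20.4 to 30.6%), held 2 or more peaks of at least 1 replicate, against 2.23% of all combined peaks and 0 of the 2174 peaks of 300 to 800 bp. The share rose with width, from 8 of 115 domains under 2000 bp to 14 of 20 at 5000 bp or more. Neighbouring peaks lay at least 204 bp apart in each replicate list, so an interval of 300 to 800 bp has little room for several. A longer interval has more room, and both contrasts are therefore given as description alone. The most frequent content was 1 peak of each replicate, in 134 domains. It was followed by no peak of either in 31 and 1 of replicate 2 alone in 29, then by 2 of each in 23 and 1 of replicate 1 with 2 of replicate 2 in 20. Several pieces were seen in both replicates in 29 domains, in replicate 1 alone in 16 and in replicate 2 alone in 25.

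The breaks between pieces often fell at the same place in both replicates. Replicate 1 had 55 breaks in 45 domains, and their median length was 443 bp (quartiles 266.5 and 1234 bp). There were 60 breaks of replicate 2 in 54 domains, and their median length was 321 bp (244 and 572.8 bp). Of the replicate 1 breaks, 32 (58.2%) overlapped a break of replicate 2, 18 (32.7%) were bridged by a replicate 2 peak over their whole length, and the other 5 were neither. Of the replicate 2 breaks, 32 (53.3%) overlapped a break of replicate 1 and 10 (16.7%) were bridged. In V 13082156 to 13091360 all 3 breaks of replicate 2 met a break of replicate 1. The longest overlapping pair was at 13086388 to 13088641 in replicate 1 and 13086336 to 13087964 in replicate 2. No list held neighbouring peaks closer than 200 bp, so breaks shorter than that cannot appear. The smallest gap was 200 bp in the combined list and 204 bp in each replicate.

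Broad domains had closer neighbours than peaks of 300 to 800 bp, and peaks of middle width lay between the classes. The gap from a domain's edge to the nearest edge of another combined peak had a median of 1244 bp (quartiles 415.5 and 4099 bp), against 5483 bp (1666 and 16697 bp) for peaks of 300 to 800 bp. The median gap was 2018 bp for peaks over 800 and under 1500 bp and 4058 bp for all combined peaks. Measured between midpoints, which a large width lengthens, the medians were still 3270 bp for broad domains and 6055 bp for peaks of 300 to 800 bp. With combined peaks closer than 500 bp joined they were 2721 and 6432 bp edge to edge, and among combined peaks up to the median q they were 3391 and 13590.5 bp. A neighbour within 500 bp was present for 81 domains (29.1%, Wilson interval 24.1 to 34.7%) and 161 narrower peaks (7.41%, 6.38 to 8.58%). A neighbour within 5000 bp was present for 218 domains (78.4%) and 1043 narrower peaks (48.0%). On both sides at once, 68 domains (24.5%) had a neighbour within 5000 bp, against 10.1% of narrower peaks. The gap did not follow width among the domains themselves, with Spearman's rho of 0.05 across the 278 domains. Its median was 1076 bp below 2000 bp of width and 1632 bp at 5000 bp or more. The order held at like strength, with medians of 788.5 bp for broad domains and 6690 bp for narrower peaks at −log10 q from 10 to under 20, and of 1164 and 4910 bp from 20 to under 40.

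**Figure D3:**
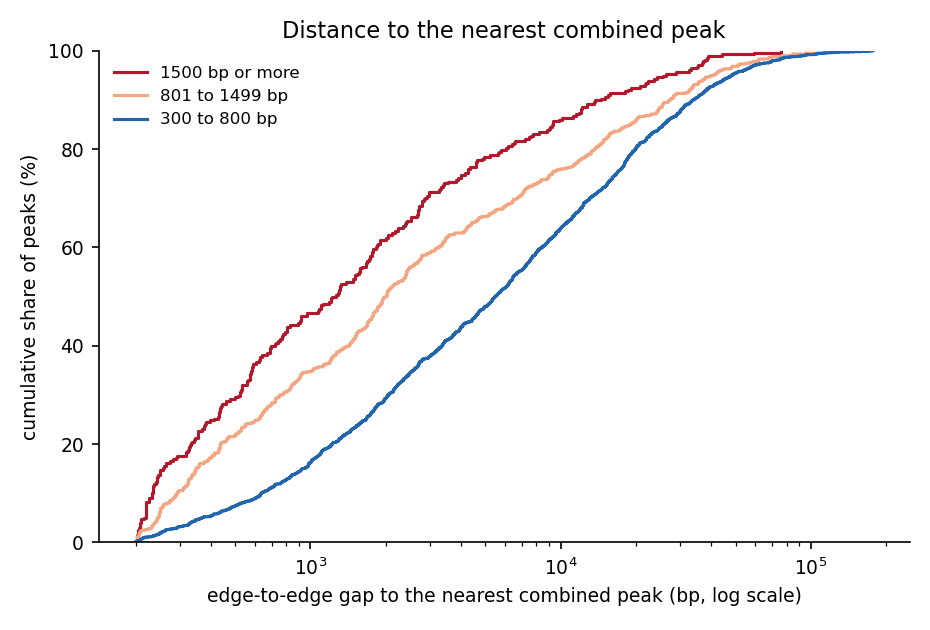
Cumulative percent of peaks by the edge-to-edge gap to the nearest combined peak in bp, on a log scale, for broad domains (red), peaks over 800 and under 1500 bp (orange) and peaks of 300 to 800 bp (blue). The red curve lies to the left, with a median gap of 1244 bp against 2018 bp for the orange one and 5483 bp for the blue one.

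Broad domains also lay near each other. The nearest combined peak was itself a broad domain in 57 of 278 cases (20.5%), while broad domains were 7.94% of the list. Another broad domain lay within 10000 bp of 79 domains (28.4%, Wilson interval 23.4 to 34.0%), whereas 243 of the narrower peaks (11.2%, 9.92 to 12.6%) had a broad domain as near. These formed 35 runs of neighbours less than 10000 bp apart, of which 28 held 2 domains, 6 held 3 and 1 held 5. The run of 5 was at III 7707794 to 7738299, where the domains were 4738, 3097, 2187, 2518 and 1564 bp wide from left to right and 10 combined peaks lay in 30506 bp. Its first member was strong, with −log10 q of 82.7, and the next ones had 19.1, 16, 28.9 and 22.02.

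Of the runs of 3, 4 were on chromosome III, and the others were at V 20771831 to 20786909 and X 12168506 to 12177880. The V run began 0.10 Mb from the last peak end of that chromosome. The X run was weak, with −log10 q from 4.22 to 11.95. Some neighbours were barely apart. The closest broad pair, V 20771831 to 20774663 and V 20774875 to 20778546, was separated by 211 bp. Next were 4 pairs with gaps of 220 bp each, starting at I 8865298, II 12053363, X 12168506 and X 14790039. In the pair at II 12053363 neither domain held a replicate peak. In all, 11 of the 272 pairs of consecutive broad domains were less than 500 bp apart.

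The domains lay on all 6 chromosomes. Chromosome III held 60 (21.6%, Wilson interval 17.1 to 26.8%), X 48 (17.3%, 13.3 to 22.2%), IV 46 (16.5%, 12.6 to 21.4%), II and V 44 each (15.8%, 12.01 to 20.6%) and I 36 (12.9%, 9.50 to 17.4%). Per Mb this was 4.36 on III, 2.88 on II, 2.72 on X, 2.63 on IV, 2.39 on I and 2.11 on V. The density on III stood above the rest for narrower peaks too, with 36.4 per Mb against 12.6 to 24.9 on the others. The intervals of the shares of all 6 chromosomes overlapped each other, that of III meeting that of I only narrowly.

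X differed most between the classes. It held 10.2% (9.01 to 11.6%) of the peaks of 300 to 800 bp but 17.3% of the broad domains, on 17.6% of the analysed length. By width class its share was 5.09% of peaks under 300 bp, 10.2% from 300 to 800 bp, 19.5% of those over 800 and under 1500 bp, and 17.3% at 1500 bp or more. Put the other way, 11.7% (8.95 to 15.2%) of the combined peaks on X were broad, against 6.57 to 8.29% on the autosomes. The interval of X overlapped that of each autosome, where upper bounds ran from 8.96 to 10.9%. No test was made of this difference.

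Broad domains of X were also the weakest. Their median −log10 q was 14.0, against 16.6 to 26.0 on the autosomes. Peaks of both replicates were found in 30 of 48 on X (62.5%) and in 25 of 44 on II (56.8%), the lowest share, against 51 of 60 on III (85.0%). The median gap from a broad domain to the next combined peak was 2458 bp on X, and 804 to 1480 bp on the autosomes. Combined peaks as a whole were also sparsest on X, with 23.25 per Mb against 26.35 to 61.14 on the autosomes. In the list of replicate 1, X held 15 of 87 peaks of 1500 bp or more (17.2%), and in that of replicate 2 it held 19 of 120 (15.8%).

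**Figure D4:**
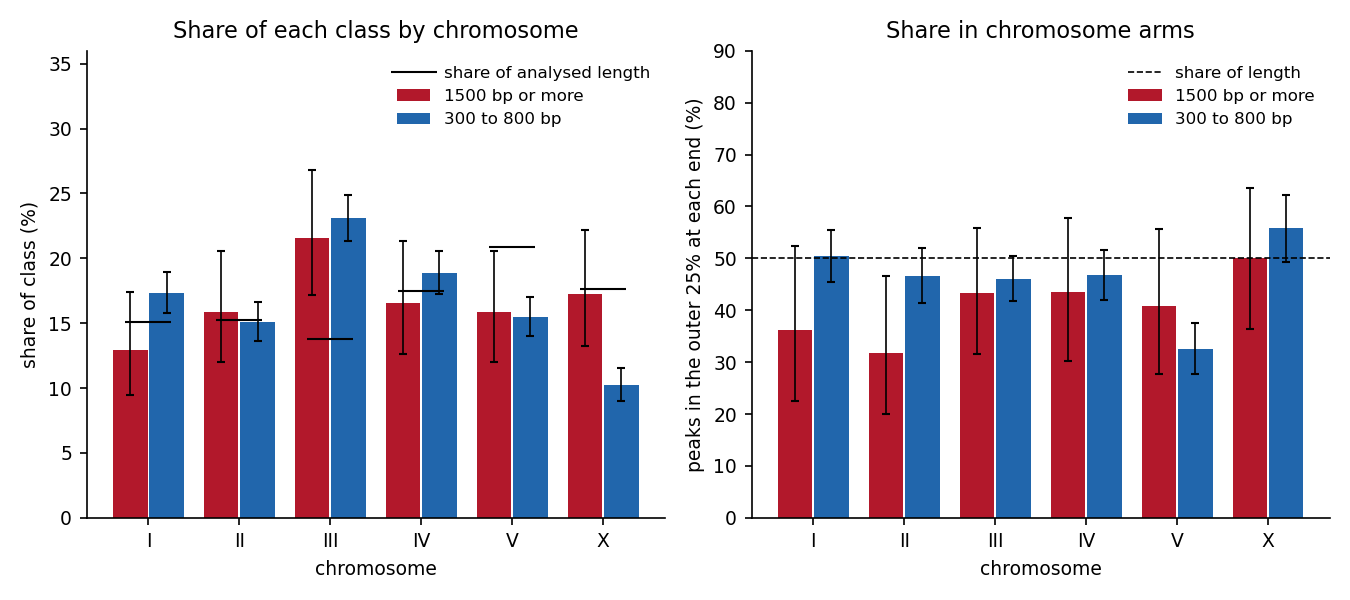
Left, percent of broad domains (red) and of 300 to 800 bp peaks (blue) on each chromosome, with black dashes for its share of the analysed length. Right, percent of each chromosome's peaks in the outer 25% at each end, with a dashed line at 50%; error bars are 95% Wilson intervals, and X holds 17.3% of the broad domains against 10.2% of the narrower peaks.

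On the autosomes more domains lay in the centres than in the arms, as was so for combined peaks in general. Of 230 autosomal domains, 91 (39.6%, Wilson interval 33.5 to 46.0%) had their midpoint in the arms, the outer 25% at each end, which together are 50% of the length. Among narrower peaks the share was 44.8% (42.6 to 47.0%), and the intervals overlapped. The share in the arms was 46.7% (36.9 to 56.9%) for domains below 2000 bp, 37.6% (28.1 to 48.3%) from 2000 to under 3000 bp, 29.7% (17.5 to 45.8%) from 3000 to under 5000 bp, and 5 of 16 (31.2%, 14.2 to 55.6%) at 5000 bp or more. By chromosome it was 36.1% on I, 31.8% on II, 43.3% on III, 43.5% on IV and 40.9% on V. On V this was above the 32.4% of its narrower peaks, and on the other autosomes it was below. The intervals of both classes overlapped on each of the 5 autosomes.

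Pooled over the autosomes, the left and right ends were not alike. The left arms held 34 domains (14.8%) and the right arms 57 (24.8%), against 22.7% and 22.1% for narrower peaks. In the outer 20% at each end the order varied between chromosomes. Left and right held 5 and 4 domains on I and 11 and 8 on III. They held 2 and 6 on II, 6 and 12 on IV and 5 and 11 on V. On X the share in arms was 50% (24 of 48). The middle part of X, from 40 to 60% of its length, held 2 of its 48 domains (4.17%) and 44 of its 222 narrower peaks (19.8%).

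Long stretches held narrow peaks and no broad domain. The longest was V 14689259 to 19048980, where 4.36 Mb held 71 combined peaks, the widest of 1410 bp, at 16.3 per Mb against 26.4 over the chromosome. The left end of II held none up to 2502582, although 56 combined peaks lay there. On X the stretch from 8022629 to 10187945 held 42 combined peaks and 0 broad domains. In other stretches the peaks were as dense as elsewhere on the chromosome. III 1927590 to 3796828 held 115 combined peaks in 1.87 Mb, or 61.5 per Mb against 61.1 over III, and the widest was 1260 bp. IV 296208 to 2313650 held 76, or 37.7 per Mb against 35.6 over IV. In bins of 1 Mb the median count of broad domains was 2, and 16 of 103 bins held 0. The fullest bins were II 8000001 to 9000000 and III 10000001 to 11000000, with 9 each.

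**Figure D5:**
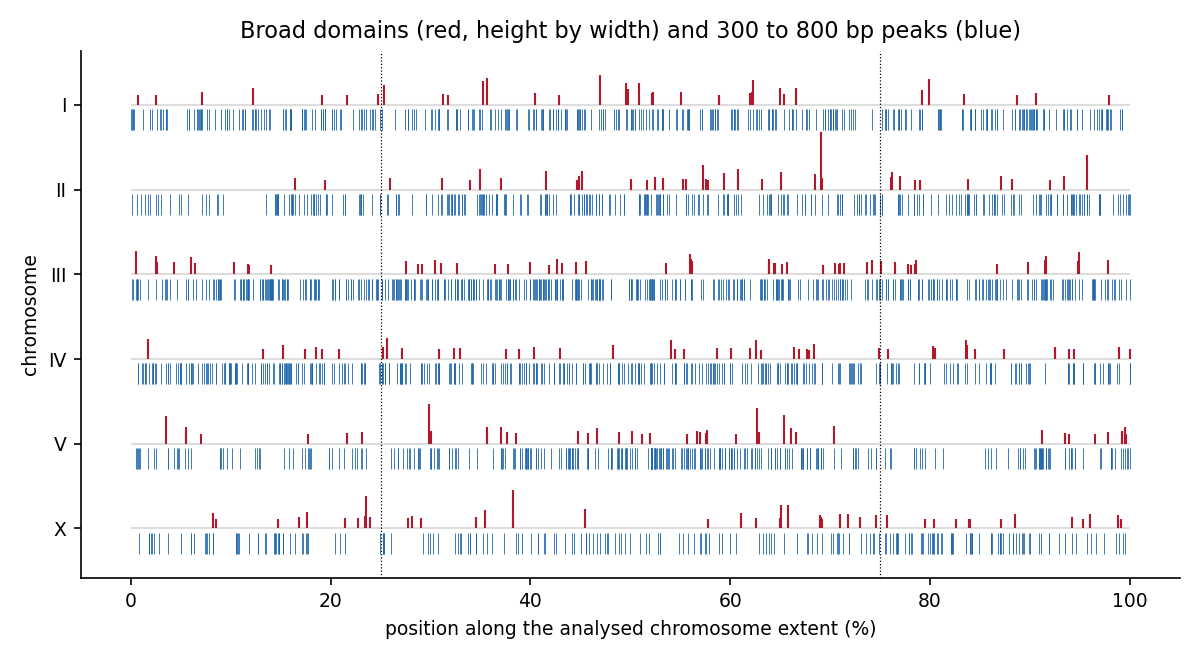
Position of each broad domain (red lines above each chromosome, taller for wider domains) and each 300 to 800 bp peak (blue lines below) along the 6 chromosomes, as percent of the analysed extent, with dotted lines at 25 and 75%. Stretches with blue lines and no red ones are seen on the right of V, 4.36 Mb long, and at the left end of II.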

How the data were processed

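The members and lists were chosen with earlier results of these data known. The authors had called peaks with PeakSeq on WormBase WS180, per the file headers and peak records. Each deposited peak has a first base, a last base and a q-value, from which −log10 q was computed. Not given in the sources used here are the aligner, read filters, q cut-off, PeakSeq version and how the combined list was made. Input samples entered no calculation. Width is the last base minus the first base plus 1. Overlap means at least 1 bp. Each chromosome was taken to end at its last peak in any list (100.1 Mb in total). The 95% Wilson intervals of shares express counting error alone, and neighbouring peaks are not independent. No test was made, since the members were chosen from the same ChIP samples. Regions were named by a fixed rule: the 20 widest, the widest per chromosome, up to 5 strongest without replicate peaks, up to 5 with most replicate peaks, 3 on each side of the threshold, and up to 5 closest pairs. The 3 weakest domains, the runs, the stretches and bins, and the pieces inside domains were picked after their values were seen. Genes and sequences are not given, as no genome or annotation of WS180 was used. Overlap, gap and arm procedures were tested on simulated lists. Python 3.11.15, numpy 2.4.6, pandas 2.3.3, scipy 1.17.1 and matplotlib 3.10.9 were used.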

Additional observations from a re-analysis of the deposited data

How the results depend on the processing

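Of 61 alternatives over 8 results, 31 stayed within the main value's interval (counts within 1.5 times) and 30 did not. Some of the 30 measured another quantity, so the direction of their move was built in. These were shares in a single replicate, midpoint distances in place of edge gaps, and wider arms. At thresholds of 1000, 2000 and 3000 bp there were 600, 163 and 64 domains, found in both replicates for 65.3, 79.8 and 95.3% and with several pieces for 13, 38.04 and 65.6%. At 3000 bp the autosomal arm share was 30.2% and the median cover 69.7% by replicate 1 and 83.7% by replicate 2. Joining combined peaks closer than 500 bp gave a median gap of 2721 bp, cover of 42.6 and 56.1% and several pieces in 37.5%. Domains with peaks of both replicates had cover of 64.5 and 74.3% and several pieces in 33.33%. Among peaks up to the median q, the median gap was 3391 bp and 79.7% were found in both. With arms widened as planned, so that each arm and the centre were equally long, the arms held 55.2%, and midpoints of nearest peaks lay 3270 bp apart. With 1 replicate left out, the share of domains found in the other was 77.3 to 83.8%, and several pieces were held by 16.2 to 19.4%. The replicate lists alone had 87 to 120 peaks of 1500 bp or more, with 33.33 to 42.6% of the autosomal ones in arms. The X share ranged from 14.9 to 19.3%. The cause of these changes was not tested. No paired analysis was possible because all peak lists used are of ChIP samples, so no other group with the same replicate numbers had values to pair. Unknown depth limits any reading of widths and q-values.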
